A study of Mus musculus with 12 samples.

Results

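The transcripts described here are those of 10 mouse genes of the interleukin 1, interleukin 6 and tumour necrosis factor systems. They encode the ligands *Il1a*, *Il1b*, *Il6*, *Il11*, *Lif*, *Osm* and *Tnf*, the interleukin 1 inhibitors *Il1rn* and *Il1r2*, and the receptor subunit *Osmr*. They were picked by gene symbol, with earlier results of these data known. They are 10 of 18996 genes in the table, and all 10 were among the 14765 genes that passed the filter on low counts. Bulk RNA sequencing of tissue from beside the spine was available for 12 wild-type BALB/c mice, 4 in each of 3 groups. No operation mice gave intact paraspinal soft tissue. SHAM mice had paraspinal soft tissue removed with the lamina (the roof of the spinal canal) left in place, and Laminectomy mice had the lamina excised. Both surgical groups gave paraspinal soft and scar tissue a week after surgery. The study's methods give an age of 5 to 7 weeks and both sexes, but the labels give the sex of no library. All groups shared the strain, and the labels name no treatment other than surgery.

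Interleukin 1 alpha and beta bind the same receptor and activate NF-kB. *Il1b* is made mainly by activated myeloid cells as a precursor that caspase-1 cleaves, whereas the alpha form is active as a precursor and is also held by epithelial cells. The system carries its own brakes, a receptor antagonist (*Il1rn*) and a decoy receptor without a signalling tail (*Il1r2*). Cytokines of the interleukin 6 family share the signalling chain gp130 (*Il6st*) and activate JAK kinases and STAT3, each through its own partner receptor. TNF signals through the receptors encoded by *Tnfrsf1a* and *Tnfrsf1b*. In wounds these cytokines are known for recruiting and activating leukocytes and for acting on fibroblasts.

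Total counts per mouse lay between 16802988 and 18077863, and levels are given as CPM, the usual depth-scaled count, on the TMM-scaled library size. Tissue content differed between the groups. The summed level of 8 skeletal muscle markers was 76566 to 113034 CPM in No operation mice, 1995 to 8257 CPM in SHAM mice and 2788 to 11381 CPM in Laminectomy mice. Of the 12 libraries, SHAM 1 had the highest keratinocyte sum (158.7 CPM against 12.5 to 94.4 CPM) and the highest monocyte and macrophage sum (8130.3 CPM against 616 to 5595 CPM). Laminectomy 2 and 3 had sums of neuron and glia markers of 457 and 116 CPM, against 14.0 to 42.0 CPM elsewhere. In bulk tissue, fewer cells of a type and less RNA per cell cannot be told apart, and neither can surgery and the presence of scar.

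The promoter sequences of the cytokine genes are shown because most of these genes moved together after surgery. RefSeq windows of 300 bases on GRCm38.p6, from 250 bases before to 50 bases after a start site, were found for 9 of the 10 genes, in 12 windows. *Osm* had no entry. The 3 windows below belong to the ligands *Il6*, *Il1b* and *Tnf*, each read 5′ to 3′ on its gene's strand. Capitals mark the searched motifs that were found: in *Il6* an AP-1 motif, a C/EBP motif and an NF-kB motif in that order, and in *Il1b* and *Tnf* a TATA box.
Il6, chr5:30012864-30013163, plus strand: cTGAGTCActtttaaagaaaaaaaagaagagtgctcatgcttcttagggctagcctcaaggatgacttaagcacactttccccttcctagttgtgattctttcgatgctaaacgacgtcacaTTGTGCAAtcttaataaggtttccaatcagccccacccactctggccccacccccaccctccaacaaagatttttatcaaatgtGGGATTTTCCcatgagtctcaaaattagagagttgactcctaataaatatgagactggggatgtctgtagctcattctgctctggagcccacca
Il1b, chr2:129371090-129371389, minus strand: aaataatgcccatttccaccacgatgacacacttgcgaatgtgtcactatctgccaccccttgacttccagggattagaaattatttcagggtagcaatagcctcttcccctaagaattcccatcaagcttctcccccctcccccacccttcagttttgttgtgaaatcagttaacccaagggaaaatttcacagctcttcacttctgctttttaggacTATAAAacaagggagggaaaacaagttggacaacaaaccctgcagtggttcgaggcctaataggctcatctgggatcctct
Tnf, chr17:35201958-35202257, minus strand: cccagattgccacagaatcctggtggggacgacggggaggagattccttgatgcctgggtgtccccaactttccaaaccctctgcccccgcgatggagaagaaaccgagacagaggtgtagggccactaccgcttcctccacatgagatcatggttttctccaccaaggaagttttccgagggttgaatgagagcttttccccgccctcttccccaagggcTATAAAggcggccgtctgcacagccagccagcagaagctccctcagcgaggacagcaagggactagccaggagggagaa

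Both strands were searched for 5 motifs, and positions count from the start site. The NF-kB consensus was found in *Il6* only among the 9 genes, as GGGATTTTCC at -44, and 4.50% of 32817 mouse promoter windows hold a match. The C/EBP motif TTGCNNAA was also found in *Il6* only, on the opposite strand at -128, with a background of 10.8% of windows. The letters TATAAA were found in *Il1a*, *Il1b*, *Il1rn* and *Tnf*, against 13.6% of all windows. In *Il1a*, *Il1b* and *Tnf* they lay on the gene's strand at -32, -31 and -29, whereas the *Il1rn* match was on the opposite strand, 15 bases past the start site of the last of its 3 windows. The STAT motif TTCCNGGAA was in none of the 12 windows and in 1.15% of all windows. The AP-1 motif TGANTCA was in 6 of the 9 genes, which is 6 of their 12 windows, and in 7.81% of all windows. These letters allow any base in the middle, where the *Osmr* match, TGATTCA, has T and the other matches have C or G. The motifs do not overlap each other in these windows. A match is only a run of letters, and no binding was measured. The 6 AP-1 matches are shown in capitals with up to 12 bases on each side, since this motif was found in more of the 9 genes than the other 4.
Il1a, chr2:129309966-129309996, minus strand: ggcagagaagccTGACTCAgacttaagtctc
Il1rn, chr2:24336707-24336737, plus strand: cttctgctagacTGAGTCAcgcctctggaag
Il6, chr5:30012864-30012883, plus strand: cTGAGTCActtttaaagaaa
Il11, chr7:4778221-4778251, minus strand: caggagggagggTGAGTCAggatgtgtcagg
Lif, chr11:4257328-4257358, plus strand: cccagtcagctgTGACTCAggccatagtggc
Osmr, chr15:6874292-6874322, minus strand: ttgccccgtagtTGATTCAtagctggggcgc

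Compared with No operation mice, all 10 genes were called higher in SHAM mice and 8 of 10 were called higher in Laminectomy mice. A gene counted as called where its adjusted p was under 0.05 and its log2 fold change was larger than 0.5 in size. The adjusted p came from the quasi-likelihood test of edgeR, with Benjamini-Hochberg adjustment over all 14765 genes, which is the test behind every adjusted p given here unless another is named. Of all genes tested, 25.7% were called higher and 25.1% lower in SHAM mice. In Laminectomy mice, 24.2% were called higher and 24.4% lower. The median log2 fold change of the 10 genes was 3.52 for SHAM and 2.54 for Laminectomy, against -0.0020 and 0.0093 over all genes tested. Every SHAM mouse lay above every No operation mouse for 9 of the 10 genes, which was so for 26.7% of all genes. Every Laminectomy mouse lay above every No operation mouse for 8 of 10, against a background of 27%. Both comparisons use the same 4 No operation mice, so their values are not independent of each other.

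**Figure D1:**
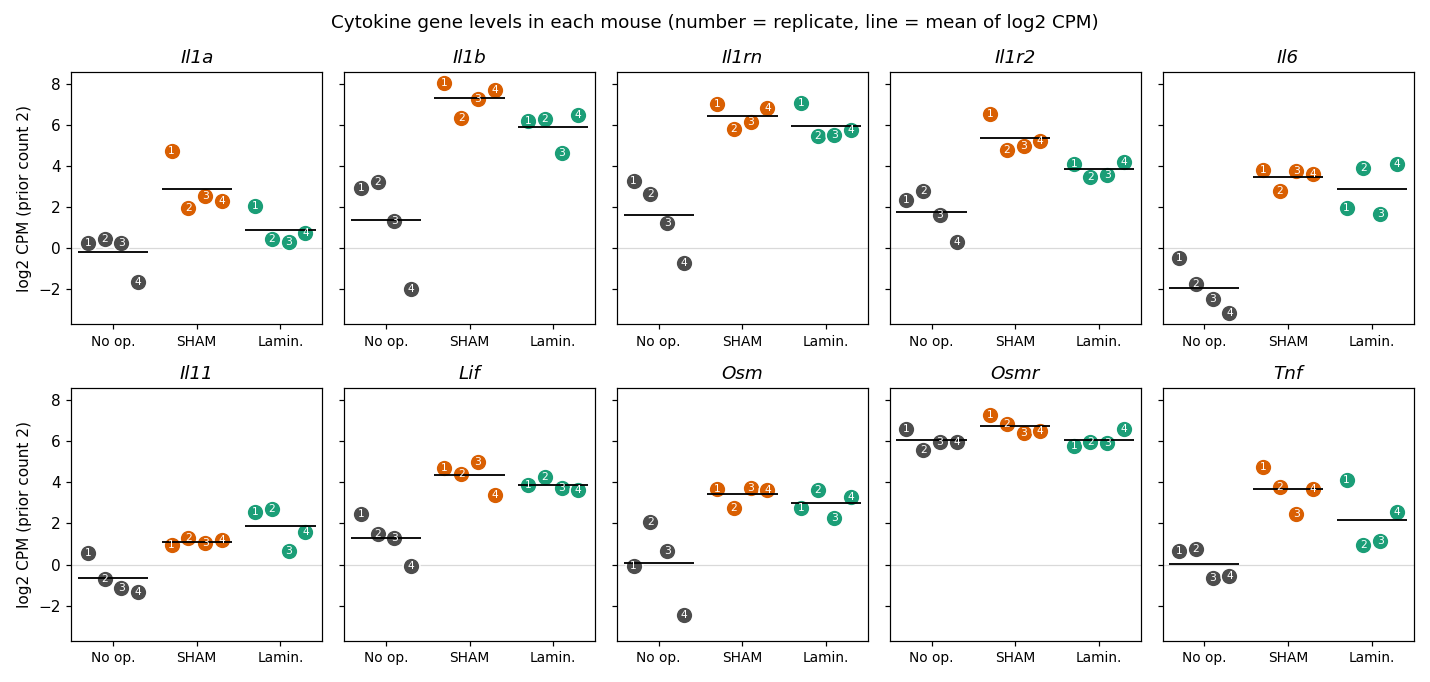
Level of each cytokine gene in each mouse, as log2 CPM with a prior count of 2 (vertical axis), in No operation, SHAM and Laminectomy mice; numbers in the points are replicate numbers and lines are group means. The surgical groups lie apart from No operation for most genes, *Osmr* in both surgical groups and *Il1a* in Laminectomy mice overlap it, and No operation 4 is the lowest No operation mouse for 8 of 10 genes.

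Among the ligands of the interleukin 1 receptor, *Il1b* (identifier 16176, chr2:129364569-129371164 of GRCm38, minus strand) was the most changed. Its level was 7.65, 9.19, 2.40 and 0.140 CPM without surgery, with the values of each group given from mouse 1 to mouse 4 here and for the genes that follow. It was 260.4, 80.4, 152 and 211 CPM after SHAM surgery and 72.9, 79.0, 25.2 and 88.6 CPM after laminectomy. Every mouse of both surgical groups lay above every No operation mouse, and Laminectomy 4 lay above the lowest SHAM mouse, so the surgical groups overlapped. *Il1b* rose by 5.17 on the log2 scale in SHAM mice (SE 0.806, adjusted p = 0.000214) and by 3.77 in Laminectomy mice (SE 0.762, adjusted p = 0.00137). The exact permutation test on log2 CPM gave p = 0.0286 for each, two-sided, the smallest that 4 against 4 mice allow. The exact permutation p was the same for every other cytokine gene against No operation too, except *Osmr* in SHAM mice (p = 0.0857) and, in Laminectomy mice, *Il1a* (p = 0.0857) and *Osmr* (p = 1). Exons of *Il1b* overlap *Il1bos*, which is antisense to it, and whether reads were counted by strand is not stated beyond default settings, so reads from either cannot be told apart.

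*Il1a* (identifier 16175, chr2:129299609-129310186, minus strand) lies 54.4 kb from *Il1b*. Its level was 1.10, 1.26, 1.07 and 0.210 CPM without surgery. In SHAM mice it was 26.4, 3.74, 5.77 and 4.75 CPM, and in Laminectomy mice 4.08, 1.23, 1.14 and 1.56 CPM. All SHAM mice lay above all No operation mice, SHAM 1 stood far above the other SHAM mice, and Laminectomy mice overlapped No operation mice. *Il1a* rose by 3.47 in SHAM mice (SE 0.764, adjusted p = 0.00214) and by 2.37 without SHAM 1 (adjusted p = 0.00447). In Laminectomy mice the log2 fold change was 1.13 (SE 0.745, adjusted p = 0.212), which did not pass, and 0.52 without Laminectomy 1. SHAM 1 was also the library with the highest keratinocyte and macrophage marker sums, whose part in the *Il1a* value was not tested. Exons of *Il1a* overlap *Gm14023* on the opposite strand, with the same limit as for *Il1b*.

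The inhibitors of interleukin 1 rose in both surgical groups. *Il1rn* (identifier 16181, chr2:24336860-24351491, plus strand), the receptor antagonist, was at 9.65, 6.05, 2.20 and 0.491 CPM without surgery. It was at 128, 55.7, 69.5 and 114 CPM after SHAM surgery and at 132, 44.2, 45.0 and 53.3 CPM after laminectomy. The surgical groups did not overlap No operation, and they spanned nearly the same range as each other. *Il1rn* rose by 4.31 in SHAM mice (SE 0.697, adjusted p = 0.000277) and by 3.90 in Laminectomy mice (SE 0.687, adjusted p = 0.000566). Without No operation 1, the highest of its group, these were 4.96 and 4.54.

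*Il1r2* (identifier 16178, chr1:40084692-40125230, plus strand), the decoy receptor, was at 4.96, 6.80, 2.93 and 1.12 CPM without surgery. It was at 94.0, 27.1, 31.2 and 37.2 CPM after SHAM surgery and at 16.9, 11.1, 11.7 and 18.4 CPM after laminectomy. It was the only one of the 10 genes whose 3 groups were all separate, with Laminectomy in the middle. *Il1r2* rose by 3.57 in SHAM mice (SE 0.535, adjusted p = 0.000164) and by 1.87 in Laminectomy mice (SE 0.513, adjusted p = 0.00831). The signalling receptor *Il1r1*, to which *Il1r2* is the decoy counterpart, was at 52.9 ± 13.3 CPM (SD, n = 4) in No operation, 279 ± 71.6 CPM in SHAM and 156 ± 60.3 CPM in Laminectomy mice.

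Of the interleukin 6 family ligands, *Il6* (identifier 16193, chr5:30013114-30019975, plus strand) was nearly absent without surgery. No operation mice had 9, 3, 1 and 0 counts, or 0.620, 0.189, 0.0666 and 0 CPM, and a count of 0 there allows up to 0.210 CPM, counting error only. SHAM mice were at 14.0, 6.69, 13.5 and 12.2 CPM, and Laminectomy mice at 3.76, 14.7, 3.11 and 16.9 CPM. The lowest surgical mouse lay well above the highest No operation mouse, and Laminectomy mice fell into a low pair (1 and 3) and a high pair (2 and 4). *Il6* rose by 5.69 in SHAM mice (SE 0.836, adjusted p = 0.000143) and by 5.41 in Laminectomy mice (SE 0.832, adjusted p = 0.00023). No operation 1 held most of the counts in its group, and without it these values were 6.93 and 6.66, still called.

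*Osm* (identifier 18413, chr11:4236785-4241026, plus strand) encodes oncostatin M, made mainly by myeloid and T cells. It was at 0.827, 4.16, 1.47 and 0.0701 CPM without surgery, at 12.6, 6.53, 13.3 and 12.3 CPM after SHAM surgery and at 6.62, 12.2, 4.71 and 9.59 CPM after laminectomy. Neither surgical group overlapped No operation, but No operation 2 came close to the lowest Laminectomy mouse. *Osm* rose by 2.76 in SHAM mice (SE 0.688, adjusted p = 0.00458) and by 2.33 in Laminectomy mice (SE 0.681, adjusted p = 0.0117). Without No operation 2 these were 3.81 and 3.37. That mouse also had the highest neutrophil marker sum of its group, 2147 CPM against 20.7 to 814 CPM, whose part in the value was not tested.

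*Lif* (identifier 16878, chr11:4257568-4272514, plus strand) lies 16.5 kb from *Osm* and encodes leukaemia inhibitory factor. It was at 5.38, 2.71, 2.33 and 0.841 CPM without surgery, at 25.6, 21.0, 31.5 and 10.3 CPM after SHAM surgery and at 14.7, 19.0, 13.2 and 12.1 CPM after laminectomy. All surgical mice lay above all No operation mice, and the Laminectomy values were close together inside the SHAM range. *Lif* rose by 2.97 in SHAM mice (SE 0.469, adjusted p = 0.000233) and by 2.39 in Laminectomy mice (SE 0.462, adjusted p = 0.00103).

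*Il11* (identifier 16156, chr7:4772373-4782907, minus strand) encodes a cytokine that acts on fibroblasts and other stromal cells. It stayed low in every group, at 1.38, 0.504, 0.333 and 0.280 CPM without surgery, 1.80, 2.35, 1.96 and 2.19 CPM after SHAM surgery and 5.82, 6.43, 1.45 and 2.87 CPM after laminectomy. It was the only member with its highest group mean in Laminectomy mice, where mice 1, 2 and 4 lay above every SHAM mouse and mouse 3 below all of them. *Il11* rose by 1.73 in SHAM mice (SE 0.554, adjusted p = 0.0178) and by 2.72 in Laminectomy mice (SE 0.558, adjusted p = 0.00149). The SHAM call did not pass without No operation 3 (log2 fold change 1.52, adjusted p = 0.0522), and without No operation 1 the values were 2.45 and 3.44.

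*Osmr* (identifier 18414, chr15:6813568-6874968, minus strand) encodes the receptor chain that pairs with gp130 to bind oncostatin M. It was at 98.1, 48.1, 63.2 and 62.9 CPM without surgery, at 152, 113, 84.9 and 89.0 CPM after SHAM surgery and at 54.6, 61.4, 60.1 and 96.5 CPM after laminectomy. All 3 groups overlapped. *Osmr* rose by 0.69 in SHAM mice (SE 0.259, adjusted p = 0.036), but the call did not pass without SHAM 1 (0.49, adjusted p = 0.11), SHAM 2 (adjusted p = 0.066), No operation 2 (adjusted p = 0.0936), No operation 3 (adjusted p = 0.081) or No operation 4 (adjusted p = 0.0771). In Laminectomy mice the log2 fold change was 0.0025 (SE 0.258, adjusted p = 0.993), with a 95% interval of -0.56 to 0.57.

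*Tnf* (identifier 21926, chr17:35199367-35202007, minus strand) was at 1.45, 1.57, 0.533 and 0.561 CPM without surgery. It was at 26.6, 13.6, 5.45 and 12.7 CPM after SHAM surgery and at 17.3, 1.80, 2.07 and 5.79 CPM after laminectomy. No surgical mouse fell into the No operation range, but Laminectomy 2 and 3 lay barely above it. *Tnf* rose by 3.81 in SHAM mice (SE 0.805, adjusted p = 0.00164) and by 2.70 in Laminectomy mice (SE 0.785, adjusted p = 0.0113). Without Laminectomy 1 the second value was 1.64 (adjusted p = 0.0456).

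Between the surgical groups, which differ in the excision of the lamina, no cytokine gene was called by edgeR, and neither was any of the other genes tested (0%). At an unadjusted p under 0.05, 3 of the 10 genes stood out (*Il1a*, *Il1r2* and *Osmr*), and 2359 of 14765 genes did. DESeq2 called *Il1a* and *Il1r2* lower in Laminectomy mice, against 4.35% of genes called in either direction, 337 higher and 359 lower of 15995. Of the 10 genes, 9 had a fitted level below SHAM, with a median log2 fold change of -0.64, and over all genes the median was 0.0037. For cell type markers the median was -0.56 in monocytes and macrophages, -0.61 in T cells, -2.50 in keratinocytes, -1.54 in adipocytes and -0.26 in fibroblasts. It was 0.0031 in endothelial cells, 0.51 in skeletal muscle, 0.63 in neutrophils and 2.37 in neurons and CNS glia. The part of cell content in these differences was not tested.

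After laminectomy *Il1r2* differed from its SHAM level by -1.70 on the log2 scale (95% interval -2.77 to -0.64, adjusted p = 0.149). It was the only member with every Laminectomy mouse below every SHAM mouse, against 5.07% of all genes, and its exact permutation p was 0.0286, unadjusted. *Il1a* differed by -2.34 (-3.89 to -0.79, adjusted p = 0.158). The *Il1a* difference was -1.24 without SHAM 1 (adjusted p = 0.474) and -2.95 without Laminectomy 1 (adjusted p = 0.125). Without SHAM 1 the *Il1r2* value was -1.12 (adjusted p = 0.411). *Osmr* differed by -0.69 (-1.25 to -0.12, adjusted p = 0.227). By DESeq2 with Benjamini-Hochberg adjustment, the adjusted p was 0.0205 for *Il1r2* and 0.0227 for *Il1a*.

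The other 7 genes did not pass by either tool, and their intervals all include 0. *Il1b* differed by -1.41 (-2.88 to 0.067, adjusted p = 0.335) and *Tnf* by -1.12 (-2.64 to 0.41, adjusted p = 0.453). The *Tnf* value was -0.64 without SHAM 1 and -2.18 without Laminectomy 1, so its size rested on single mice. *Il11* differed by 0.99 (-0.11 to 2.10, adjusted p = 0.363), the only member above 0. *Lif*, *Osm*, *Il1rn* and *Il6* lay closer to 0, at -0.58 (-1.51 to 0.34), -0.43 (-1.80 to 0.93), -0.42 (-1.71 to 0.88) and -0.27 (-1.59 to 1.04).

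**Figure D2:**
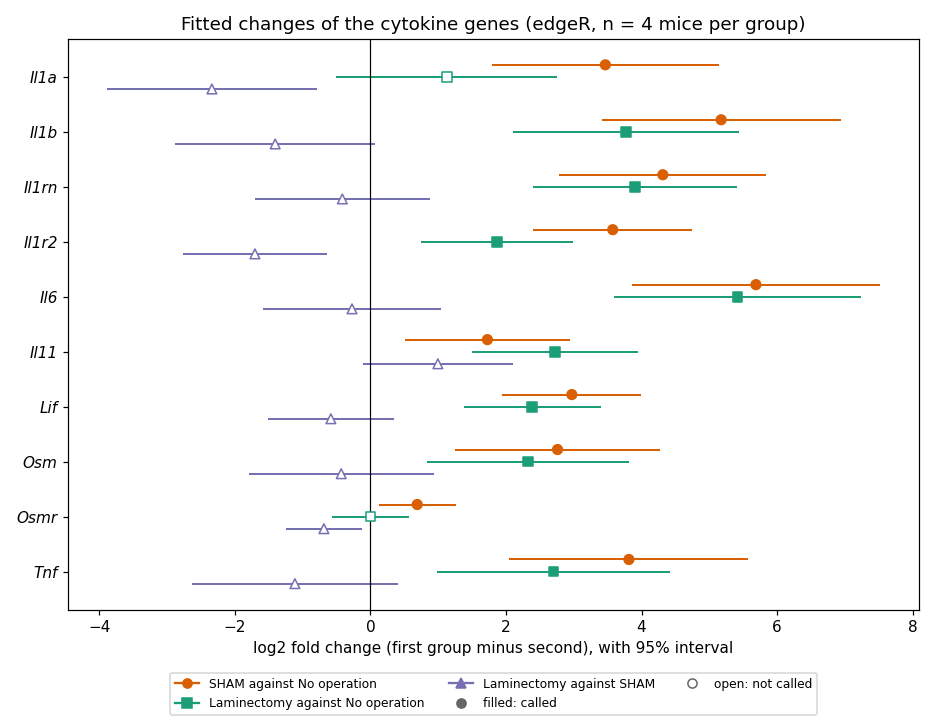
Fitted log2 fold change of each cytokine gene with its 95% interval (horizontal axis, first group minus second) in the 3 comparisons, n = 4 mice per group; filled symbols are called and open symbols are not. Against No operation, all 10 genes are called after SHAM surgery and 8 after laminectomy, and the differences between Laminectomy and SHAM are all open, 9 of them left of 0.

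Per length of exon, taken over all annotated exons of a gene, the order of the mean levels differed between the groups. In No operation mice *Osmr* had the highest mean level at 5.62 ± 1.75 CPM per kb (SD, n = 4), ahead of *Il1b* at 2.54 ± 2.24 CPM per kb, and *Il6* the lowest at 0.0902 ± 0.115 CPM per kb. In SHAM mice *Il1b* led at 92.3 ± 40.7 CPM per kb, followed by *Il1r2* at 24.8 ± 16.4 CPM per kb and *Il1rn* at 16.6 ± 6.23 CPM per kb. In Laminectomy mice *Il1b* led at 34.8 ± 14.8 CPM per kb, followed by *Il1rn* at 12.4 ± 7.71 CPM per kb and *Il1r2* at 7.61 ± 1.92 CPM per kb. In SHAM mice *Il1r2* ran from 14.2 to 49.3 CPM per kb, highest in SHAM 1, and *Il1rn* from 10.1 to 23.1 CPM per kb. In Laminectomy mice *Il1r2* ran from 5.82 to 9.64 CPM per kb and *Il1rn* from 7.98 to 23.9 CPM per kb. Their values thus overlapped in both groups, and their order was not settled. *Il1b* lay apart from the next gene in SHAM mice beyond 1 SD of each, while *Tnf*, *Il1a*, *Lif*, *Osm* and *Il6*, between 4.78 and 8.91 CPM per kb there, did not differ from each other in that order beyond their spread. *Il11* was the lowest in SHAM mice at 0.997 ± 0.118 CPM per kb, and all 4 of its values lay below those of *Il6*.

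The balance of antagonist to agonist transcripts was measured as the ratio of *Il1rn* to *Il1b* counts, which does not depend on scaling. It was 0.491, 0.693, 0.457 and 0.538 in SHAM mice and 1.82, 0.559, 1.79 and 0.602 in Laminectomy mice. The Laminectomy mice split into a pair near 1.8 and a pair inside the SHAM range, so the groups overlap. In No operation mice it was 1.26, 0.658, 0.917 and 3.50, the last from only 2 counts of *Il1b*. The ratio of *Il1b* to *Il1a* counts was 9.86, 21.5, 26.3 and 44.4 in SHAM mice and 17.9, 64.0, 22.1 and 56.6 in Laminectomy mice, again overlapping. In No operation mice it was 6.94, 7.30, 2.25 and 0.667, each below every surgical mouse.

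Of 87 other genes of these pathways that were tested, in 7 lists, 59 were called higher and 3 lower in SHAM mice, and 44 higher and 9 lower in Laminectomy mice. These are 67.8% and 3.45% in SHAM mice, against 25.7% and 25.1% of all genes. In Laminectomy mice they are 50.6% and 10.3%, against 24.2% and 24.4%. The lists were chosen with earlier results of these data known, so these shares are not an independent test. Between the surgical groups edgeR called 0 of the 87, while 43 had an unadjusted p under 0.05, 42 of them lower in Laminectomy mice. Over all 14765 genes, 2359 had such a p in either direction, and their split by direction was not counted. DESeq2 called 10 of the 88 pathway genes it tested, 11.4% against 4.35% of all genes in either direction. All 10 were lower in Laminectomy mice (*Birc3*, *Cebpb*, *Il11ra1*, *Il18*, *Il1rl2*, *Il33*, *Il4ra*, *Irak3*, *Jak2* and *Saa3*). Of all 15995 genes it tested, DESeq2 called 337 higher and 359 lower. Besides *Il31*, which had no row, the genes *Il36a*, *Il36b*, *Il36rn*, *Il1f10*, *Il27* and *Lta* were not tested because of low counts.

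**Figure D3:**
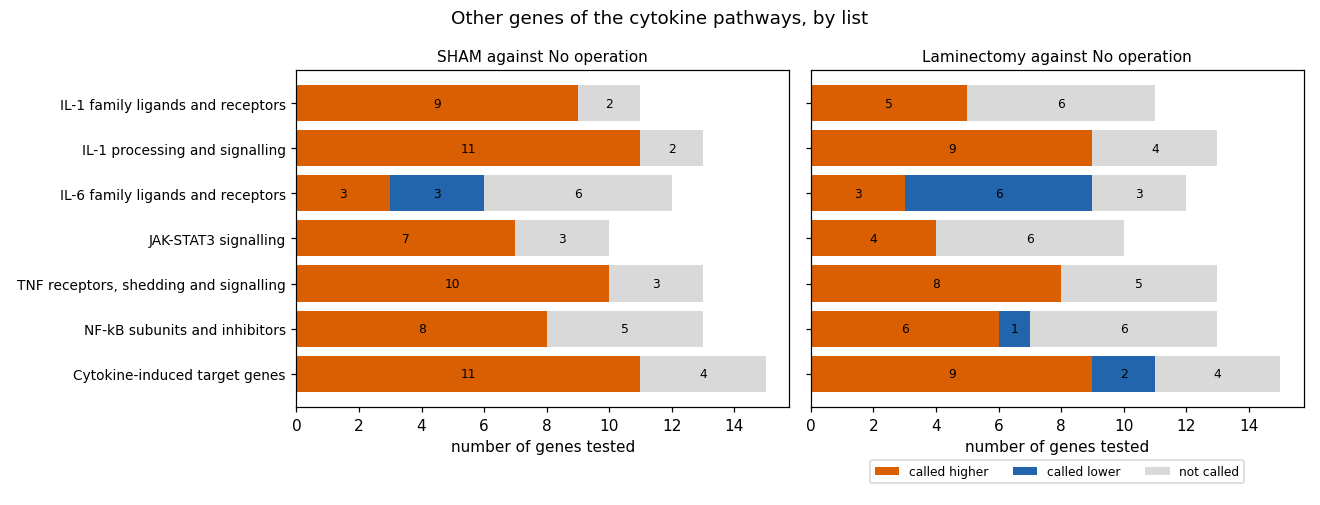
Number of genes of each pathway list (horizontal axis) that were called higher, called lower or not called after SHAM surgery and after laminectomy, each against No operation. Calls are mostly higher, and the list of interleukin 6 family ligands and receptors has 3 of 12 lower in SHAM and 6 of 12 lower in Laminectomy mice.

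Among interleukin 1 family ligands and receptors, 9 of 11 genes rose in SHAM mice and 5 of 11 in Laminectomy mice, against 25.7% and 24.2% of all genes called higher, and none fell. *Il1r1*, the signalling receptor, rose by 2.40 (SE 0.282, adjusted p = 3.46e-05) in SHAM and by 1.56 (SE 0.274, adjusted p = 0.000562) in Laminectomy mice. Its accessory chain *Il1rap* rose by 1.46 in SHAM mice (adjusted p = 0.000617), while its 0.62 in Laminectomy mice did not pass (adjusted p = 0.0616) unless SHAM 1 or SHAM 2 was left out. *Il1f9*, the current *Il36g*, a ligand best known from epithelia, rose from 2.65 ± 2.83 CPM in No operation to 22.8 ± 9.60 CPM in SHAM and 12.1 ± 4.45 CPM in Laminectomy mice. The log2 rise of *Il1f9* was 3.09 and 2.17, and without No operation 2 it was 4.11 and 3.19. *Il1rl1*, the receptor of interleukin 33, rose by 2.63 and 1.87. Of 13 processing and signalling genes, 11 rose in SHAM and 9 in Laminectomy mice. *Nlrp3*, the inflammasome sensor upstream of caspase-1, rose by 3.96 (adjusted p = 0.000539) and 2.66 (adjusted p = 0.00575), and the inflammatory caspase gene *Casp4* by 2.38 and 1.71. Without SHAM 1 the *Nlrp3* value in SHAM mice was 3.31, and without Laminectomy 1 that in Laminectomy mice was 2.06.

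In the interleukin 6 family list, 3 of 12 genes were called higher and 3 lower in SHAM mice, which is the share of all genes called each way (25.7% and 25.1%). In Laminectomy mice 3 were called higher, again near the 24.2% of all genes, and 6 lower, against 24.4%. *Il6st*, the shared chain gp130, was at 475 ± 73.9 CPM in No operation, 407 ± 65.3 CPM in SHAM and 316 ± 42.0 CPM in Laminectomy mice. Its change in SHAM mice was -0.22 on the log2 scale (adjusted p = 0.249), and it fell by 0.59 in Laminectomy mice (adjusted p = 0.00834). *Lifr*, which pairs with gp130 to bind *Lif*, fell by 0.63 (adjusted p = 0.00452) and 0.73 (adjusted p = 0.00189). So the ligand *Lif* and its receptor chain moved in opposite directions in both surgical groups. *Il11ra1*, the receptor of *Il11*, fell by 0.77 in Laminectomy mice (adjusted p = 0.0259), and its 0.24 in SHAM mice did not pass (adjusted p = 0.439). *Il6ra* was called in SHAM mice at 0.54 (adjusted p = 0.0476), with -0.056 in Laminectomy mice (adjusted p = 0.838). For none of these receptors did edgeR call the difference between Laminectomy and SHAM mice, the adjusted p being 0.296 for *Il6st*, 0.135 for *Il11ra1* and 0.212 for *Il6ra*. With 1 mouse left out, the *Il6ra* call was lost in 8 fits, those without No operation 2, 3 or 4, SHAM 1 or 3, or Laminectomy 1, 2 or 3, and its value was 0.34 without SHAM 1 (adjusted p = 0.16). The Laminectomy call of *Il11ra1* was lost without No operation 3 or 4 or Laminectomy 1 or 2, and that of *Il6st* without No operation 1 or Laminectomy 1, where its value was -0.49 and -0.50.

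Other genes of this list included the ligand *Clcf1*, which rose by 1.68 and 1.56, and *Ebi3*, a subunit of interleukin 27, which rose by 1.73 and 0.94, the latter not called without No operation 1, 3 or 4 or Laminectomy 1, 2 or 3. *Cntfr*, the receptor of ciliary neurotrophic factor, fell by 2.09 and 2.18, a direction it shared with the 8 skeletal muscle markers, all called lower in both groups. The part of muscle content in the receptor values was not tested. *Il31ra* fell by 2.13 in Laminectomy mice (adjusted p = 0.00609), from 2.69 ± 1.69 to 0.611 ± 0.198 CPM. In JAK-STAT3 signalling, 7 of 10 genes rose in SHAM and 4 of 10 in Laminectomy mice, against 25.7% and 24.2% of all genes. The feedback inhibitor *Socs3*, a STAT3 target, was at 38.7 ± 41.9 CPM in No operation, 228 ± 55.5 CPM in SHAM and 116 ± 43.2 CPM in Laminectomy mice. It rose by 2.56 (adjusted p = 0.00298) and 1.58 (adjusted p = 0.033), and *Socs1* by 1.63 and 1.80. No operation 1 held the highest *Socs3* level of its group, and without it the values were 3.67 and 2.69. The Laminectomy call of *Socs3* was lost in 6 fits, those without No operation 2, 3 or 4 or Laminectomy 1, 2 or 4.

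Of the TNF list, 10 of 13 genes rose in SHAM mice and 8 of 13 in Laminectomy mice, against 25.7% and 24.2% of all genes. The receptor *Tnfrsf1a* was at 100.2 ± 20.2 CPM in No operation, 237 ± 19.9 CPM in SHAM and 172 ± 18.5 CPM in Laminectomy mice, and it rose by 1.24 (adjusted p = 2.93e-05) and 0.78 (adjusted p = 0.000692). *Tnfrsf1b*, the receptor found mainly on immune and endothelial cells, rose by 2.47 (adjusted p = 6.32e-05) and 1.78 (adjusted p = 0.000593). *Tnfaip3*, which encodes the NF-kB inhibitor A20, rose by 2.00 and 1.25. Among NF-kB subunits and inhibitors, 8 of 13 rose in SHAM mice, and in Laminectomy mice 6 rose and 1 fell. The higher counts stand against the same 25.7% and 24.2%, and 1 of 13 lower is below the 24.4% of all genes called lower. The inhibitor *Nfkbie* rose by 2.85 and 2.37 and *Bcl3* by 2.79 and 1.98, and the single lower call was *Nfkbib*, which fell by 0.74 in Laminectomy mice (adjusted p = 0.00353).

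Of 15 genes known to be induced by these cytokines, 11 rose in SHAM mice, and in Laminectomy mice 9 rose and 2 fell. All genes were called higher at 25.7% and 24.2%, and 2 of 15 lower is below the 24.4% of all genes called lower. *Cxcl2*, a neutrophil chemoattractant, was at 1.34 ± 2.01 CPM in No operation, 73.8 ± 48.2 CPM in SHAM and 19.4 ± 12.1 CPM in Laminectomy mice, and it rose by 5.78 (adjusted p = 0.000348) and 3.85 (adjusted p = 0.00374). Without No operation 1, the highest of its group, the *Cxcl2* values were 7.68 and 5.75. *Saa3*, an acute-phase gene, was at 15.3 ± 29.2 CPM, 1670.0 ± 1819 CPM and 103 ± 53.3 CPM in the same order. It rose in SHAM mice by 6.77 (SE 1.65, adjusted p = 0.00405), and in Laminectomy mice its 2.75 did not pass (SE 1.38, adjusted p = 0.106). *Saa3* ran from 334 to 4301 CPM in SHAM mice and from 0.491 to 59.1 CPM in No operation mice. Its difference between Laminectomy and SHAM, -4.02 (SE 1.45), was not called by edgeR (adjusted p = 0.21). Without No operation 1, *Saa3* was called in both groups, at 11.24 and 7.22, and without SHAM 1 its value in SHAM mice was 5.71. *Sod2*, the mitochondrial superoxide dismutase gene, and *Cebpd*, a transcription factor gene, were the 2 called lower in Laminectomy mice, where they fell by 1.39 and 1.12.

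Marker sums for cells that can make these cytokines are given beside them. For monocytes and macrophages, the sum of 8 markers was 616 to 1812 CPM in No operation, 4487 to 8130.3 CPM in SHAM and 3261 to 5595 CPM in Laminectomy mice, and 7 and 6 of 8 markers rose, against 25.7% and 24.2% of all genes. For neutrophils, the sum was 84.1, 2147, 814 and 20.7 CPM in No operation mice, 711 to 1645 CPM in SHAM mice and 1375 to 2398 CPM in Laminectomy mice, and 2 of 8 markers rose in each, near the share of all genes called higher (25.7% and 24.2%). No marker of either list was at 0 in all mice of a group. No operation 4 had the lowest sums of both lists and the lowest level of 8 of the 10 genes.

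The other marker lists are given in the same way, and their counts stand against 25.7% of all genes called higher and 25.1% called lower in SHAM mice, and 24.2% and 24.4% in Laminectomy mice. Fibroblast sums were 5953 to 21163 CPM in No operation, 44403 to 60291 CPM in SHAM and 40767 to 46680.2 CPM in Laminectomy mice, with 6 of 8 markers higher and 1 lower in both. Keratinocyte sums were 25.4 to 46.2 CPM, 16.1 to 158.7 CPM and 12.5 to 19.4 CPM, with 3 of 5 tested markers higher and 1 lower in SHAM mice and 0 higher and 1 lower in Laminectomy mice. For T cells, 4 of 5 tested markers rose in SHAM mice, and in Laminectomy mice 3 rose and 1 fell. Adipocyte markers fell, 5 of 8 in SHAM and 8 of 8 in Laminectomy mice. For endothelial cells 1 of 8 fell and 0 rose in both, below the share of all genes called. For neurons and CNS glia, whose sums were high in Laminectomy 2 and 3, 3 of 8 markers were tested, of which 1 rose in SHAM and 2 in Laminectomy mice and 0 fell. The part of cell content in the cytokine values was not tested.

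**Figure D4:**
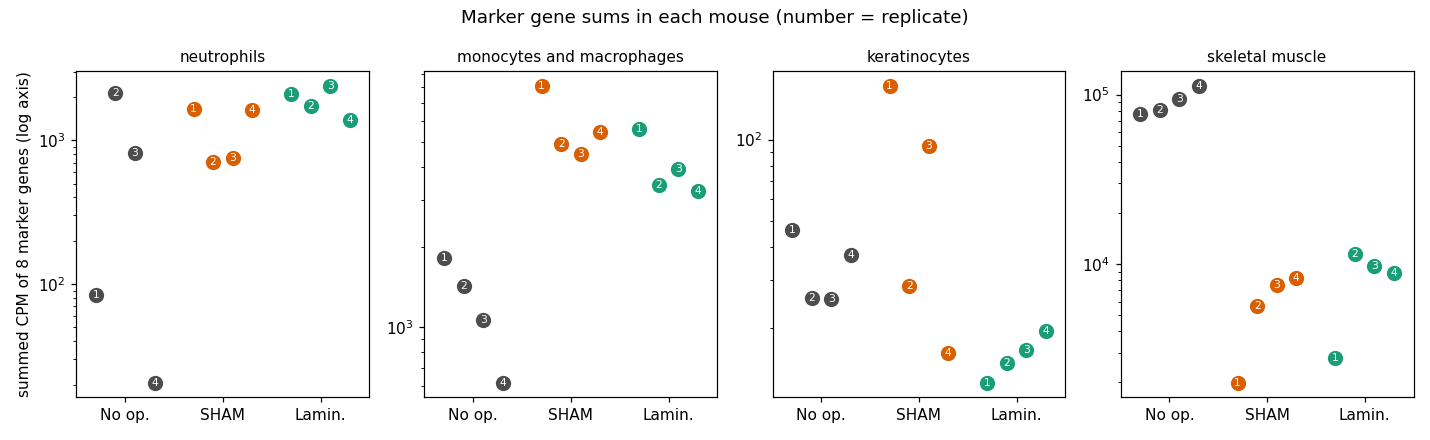
Summed CPM of 8 marker genes per list in each mouse (vertical log axes), for neutrophils, monocytes and macrophages, keratinocytes and skeletal muscle; numbers in the points are replicate numbers. Macrophage sums separate the surgical mice from No operation, neutrophil sums overlap, with No operation 2 and 3 at 2147 and 814 CPM, and SHAM 1 is highest for keratinocytes at 158.7 CPM.

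Genes with a profile most like each cytokine gene were ranked over the 12 mice by the mean absolute difference in log2 CPM after centring, among 10627 genes with at least 10 CPM on average, and 2 are named for each. *Il1b* was nearest to *Clec4e*, a C-type lectin receptor of myeloid cells, at 0.62, and to the chemokine gene *Cxcl2* at 0.63. *Il1a* was nearest to *Cd274*, which encodes PD-L1, at 0.50 and to the myeloid integrin gene *Itgam* at 0.51. *Il1rn* was nearest to *Sirpb1c* at 0.26 and *F7* at 0.35, and *Il1r2* to *Asprv1* at 0.33 and *Tmem8* at 0.35. By this measure the inhibitors had closer neighbours than the ligands they oppose. In No operation 4, *Il1b* and *Il1a* had 2 and 3 counts, against 7 and 16 for *Il1rn* and *Il1r2*. The part of low counts and of the range of levels in these distances was not tested.

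For *Il6* the nearest were *Ptgs2*, which encodes cyclooxygenase 2, at 0.54 and the chemokine gene *Cxcl1* at 0.63. *Lif* was nearest to 2 matrix genes, *Ltbp2* at 0.29 and the collagen cross-linking enzyme gene *Lox* at 0.34. *Il11* was nearest to *Fhl2* at 0.39 and *Tnfrsf11a* at 0.41, and *Osm* to *Rgs1* and *Kif2c*, both at 0.42. *Tnf* was nearest to the leukocyte immunoglobulin-like receptor genes *Lilrb4a* at 0.50 and *Lilr4b* at 0.52. *Osmr* had the closest neighbours, *Rhoj* and *Rnase4*, both at 0.16, and also the narrowest range of levels. All of these values share the same libraries and group differences, and describe likeness over these mice only.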

How the data were processed

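Stranded polyA libraries were sequenced paired-end on an Illumina HiSeq instrument from 4 mice per group, labelled biological replicates. The study used 3 per group, which the labels do not name, so all 4 entered. The authors aligned reads to GRCm38 and counted them per gene. The submitters' processing notes name STAR 2.6.1b, featureCounts 2.0.1 and DESeq2 1.30.1. The authors deposited a table of unnormalized values per gene that behave as estimated counts, since 10.2% are not whole, none of them in the cytokine genes. They were rounded, which moved none by more than 0.5, although the planned design assumed whole counts.

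After filterByExpr by group and TMM scaling (factors 0.849 to 1.13), all 12 mice were fitted in 1 model (edgeR 4.0.16, R 4.3.3). The biological coefficient of variation was 28.3%. SE is the absolute log2 fold change over the square root of F, and intervals use the fit's degrees of freedom. The limit given for a count of 0 covers counting error only. The fits were also run on simulated counts with known changes, and the outcome is not given here. Members and gene lists were chosen with earlier results of these data known. Named genes are the 10 members, 8 receptor subunits, per pathway list up to 2 called higher and 2 called lower with the largest change against No operation and at least 1 CPM, taken over both comparisons, and the 2 nearest profiles per member. Level per length used the union of all GENCODE exons of a gene, from 1639 bases for *Tnf* to 12113 bases for *Osmr*. Alternatives were DESeq2 1.42.0, its size factors, no filter, only the groups compared, a log2 threshold of 1, a replicate block and each mouse left out. Replicate numbers shared between groups were not treated as pairs.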

Additional observations from a re-analysis of the deposited data

Results flagged for a closer look

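In 6 of 30 groups of 4 mice (10 genes in 3 groups), 1 mouse lay apart from the other 3 by Dixon's criterion. Chance flags about 1 in 20 groups where values are independent and normally distributed. The criterion was applied to CPM, and the 30 groups share the same 12 mice, so 6 of 30 cannot be set against that rate. SHAM 1 was high for *Il1a*, at 26.4 CPM against 3.74 to 5.77 CPM, and for *Il1r2*, at 94.0 CPM against 27.1 to 37.2 CPM. Laminectomy 1 was high for *Il1a*, at 4.08 CPM against 1.14 to 1.56 CPM, and for *Il1rn*, at 132 CPM against 44.2 to 53.3 CPM. SHAM 2 was low for *Osm*, at 6.53 CPM against 12.3 to 13.3 CPM, and Laminectomy 4 was high for *Osmr*, at 96.5 CPM against 54.6 to 61.4 CPM. SHAM 1 was the highest SHAM mouse for 7 of the 10 genes.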

How the results depend on the processing

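DESeq2 in place of edgeR moved the count of cytokine genes called between Laminectomy and SHAM mice from 0 to 2 and that of other pathway genes from 0 of 87 to 10 of 88, all 10 lower in Laminectomy mice, and the cause was not tested. Over all genes DESeq2 called 696 there (4.35%), 337 higher and 359 lower, and edgeR 0. The other 106 counts, over all alternatives, stayed within 1.5 times the reported count. With 1 mouse left out, 8 to 10 cytokine genes were called in SHAM mice, 8 in each fit in Laminectomy mice and 0 between both, and 59 to 65 and 47 to 56 other pathway genes against No operation. The *Osmr* value of Laminectomy against No operation turned negative without No operation 2 (-0.13), 3 (-0.033) or 4 (-0.025) or without Laminectomy 4 (-0.21), and over all such fits it ran from -0.21 to 0.23. The *Il6* value of Laminectomy against SHAM ran from -0.69 without Laminectomy 4 to 0.021 without Laminectomy 3. At a log2 threshold of 1, *Osmr* was not called in SHAM mice. In 12 pairs of same-numbered mice from 2 groups, deviations correlated between -0.23 and 0.35, and 7 of the 12 exceeded 0.1. The labels tie the numbers to no shared litter or day, and 5 pairs fell short of 0.1, so the numbers were not treated as pairs. In 10 of 24 cases a mouse correlated best with its own number in another group, where 6 would be expected if the numbers carried nothing. With the replicate block, 10, 8 and 0 cytokine genes and 62, 55 and 0 other pathway genes were called, and 7442, 7153 and 0 of all genes. Counts under 10, as for *Il6* in No operation mice, limit the precision of a fold. The values of other pathway genes without 1 mouse were an alternative added after seeing the data.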
